A study of Rattus norvegicus with 8 samples.

Results

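Semaphorins, ephrins, netrins and Slits, the 4 classical families of axon guidance cues, and their receptors were described in cultured rat sensory neurons. The genes were chosen by symbol: of the 17320 genes listed in the authors' deposited comparison table, 60 were named as a semaphorin (Sema), plexin (Plxn), Eph receptor (Epha, Ephb), ephrin (Efna, Efnb), Slit, Robo or Unc5 gene, or were Nrp1, Nrp2, Ntn1, Ntn4 or Dcc. Transcripts of 54 of the 60 could be matched and have values in every library. The other 6 (Sema3f, Sema5b, Plxnd1, Epha10, Ephb3 and Robo3) have values only in the authors' deposited tables. The letters Unc5 also brought in Unc50, which encodes an RNA-binding protein of the inner nuclear membrane and is no netrin receptor, and Unc5cl, which had 0 counts in all 8 libraries. Both are counted among the 60 and described apart.

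The neurons came from dorsal root ganglia of rat embryos at day 15 (E15) and grew for 7 days in microfluidic chambers, in which axons reach a compartment of their own through narrow grooves. Lentivirus carrying either a short hairpin RNA against the RNA-binding protein Pum2 (shPum2) or a control hairpin (shControl) was added on the day of plating, so every group had been transduced. There were 4 groups of 2 libraries: soma shControl, soma shPum2, axon shControl and axon shPum2. The source label of the somatic libraries names cell bodies together with axons, and these libraries were made with a standard kit whereas the axonal ones were made with an ultra-low input kit, so an effect of compartment and an effect of the kit cannot be told apart. Nothing in the labels says that the 2 libraries of a group came from separate cultures, so p-values measure only the spread between these libraries.

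Guidance cues steer growing axons by attraction or repulsion, and each acts through receptors in the growth cone membrane. Secreted class 3 semaphorins bind neuropilins, which signal through plexins, while membrane semaphorins bind plexins directly. Ephrins are membrane-bound and signal through Eph receptor tyrosine kinases on contact, netrins attract through Dcc and repel through Unc5 receptors, and Slits repel through Robo receptors. Embryonic sensory neurons are a standard system for collapse of the growth cone by semaphorins and ephrins.

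Total estimated counts ran from 16725876 to 25821766 in the somatic and from 11641947 to 16131611 in the axonal libraries. Counts scaled to the library total (CPM) compare a gene between libraries, and TPM, which also divides by transcript length, compares genes within a compartment. All 12 of the sensory neuron markers that could be matched were detected in each of the 8 libraries. Pum2 itself stood at 164 and 160 CPM in the somatic shControl libraries against 38.2 and 36.5 in the somatic shPum2 libraries. Axonal Pum2 read 3.25 and 0.443 CPM in the shControl libraries against 1.46 and 7.07 CPM in the shPum2 libraries, so its axonal level does not separate the hairpins. Somatic shPum2 replicate 1 stood apart in 8 matched fibroblast markers (Col1a1, Col3a1, Fn1 and others), which summed to 8515 CPM there and to between 1625 and 3270 CPM in the other 3 somatic libraries. Macrophage markers summed to between 65.2 and 259 CPM in soma and to between 222 and 3694 CPM in axons. Fewer cells of a type and less RNA per cell cannot be told apart in such bulk libraries.

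The guidance genes were abundant in soma and sparse in axons. Of the 54 measured genes, 47, 47, 50 and 47 reached 1 CPM in the 4 somatic libraries and 17, 20, 26 and 10 did so in the 4 axonal libraries. Values are given in the same order throughout: shControl replicates 1 and 2, then shPum2 replicates 1 and 2. Together the genes held 2669, 2443, 2766 and 2391 CPM in soma and 152, 333, 474 and 125 CPM in axons. The lowest somatic sum was thus above the highest axonal one, and axonal shPum2 replicate 1 held more than any other axonal library.

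**Figure D1:**
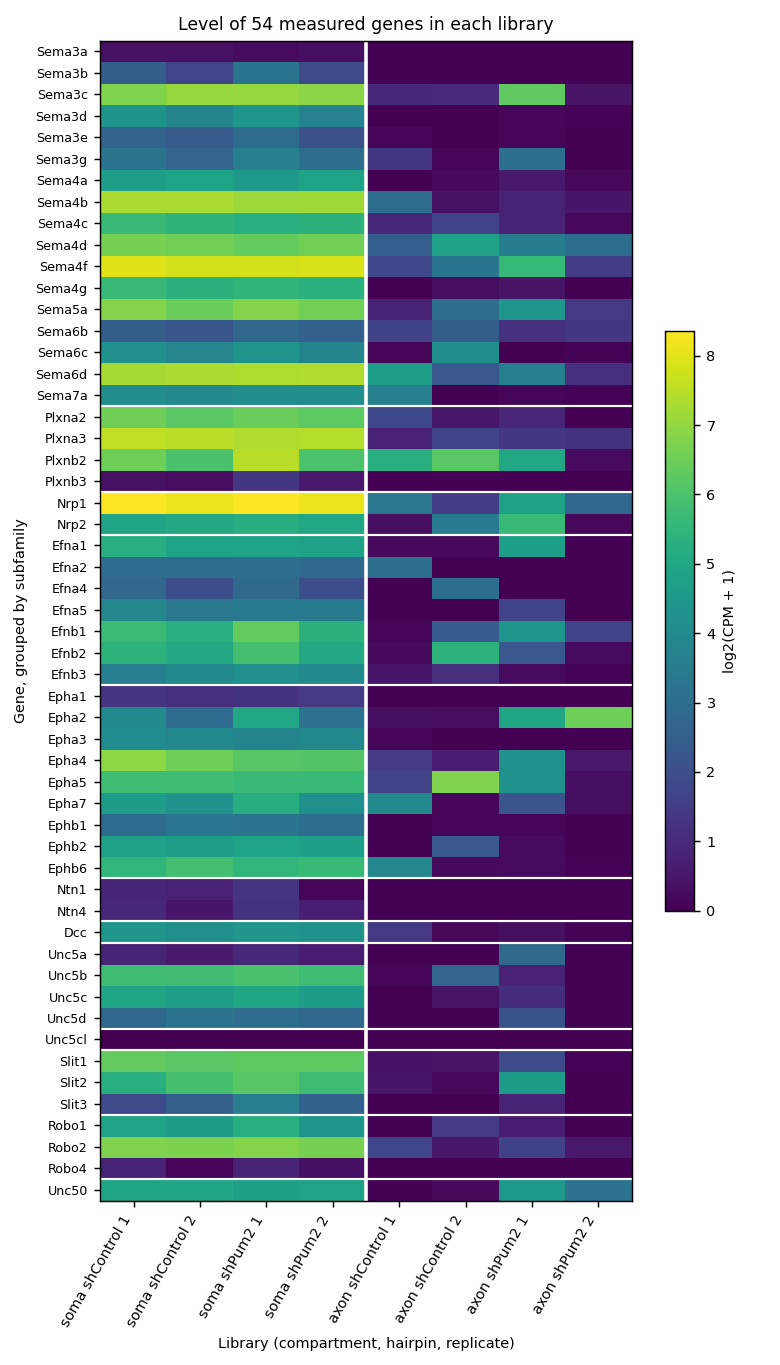
Level of each of the 54 measured genes (rows, grouped by subfamily) in each of the 8 libraries (columns), as log2(CPM + 1). The 4 somatic columns resemble each other row by row, whereas in the 4 axonal columns a row is often bright in a single library, for example Epha5 at 106 CPM in shControl replicate 2.

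Semaphorins were the most abundant subfamily in soma by length-scaled level. The 17 measured semaphorins summed to a mean of 404 TPM over the 4 somatic libraries, and 16 of them reached 1 CPM in all 4. Sema4f, a transmembrane class 4 semaphorin, led with a somatic mean of 99.5 TPM. It had 247, 221, 218 and 232 CPM in soma and 2.48, 8.5, 47.8 and 1.86 CPM in axons. The somatic libraries lay within a narrow band, and the axonal value of shPum2 replicate 1 was well above the other 3.

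Sema4b, of the same transmembrane class, followed at 75.1 TPM and Sema6d, a transmembrane semaphorin that binds A-type plexins, at 45.8 TPM. Sema4b had 155, 156, 139 and 143 CPM in soma and 7.02, 0.296, 0.773 and 0.434 CPM in axons. Sema6d had 149, 156, 159 and 164 CPM in soma and 24.3, 3.84, 11.1 and 1.18 CPM in axons. Both were highest in shControl replicate 1 among the axonal libraries, unlike Sema4f.

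Sema3c was the only measured class 3 semaphorin with a somatic mean above 10 TPM, with a mean of 44.1 TPM. Its somatic levels were 107, 130, 132 and 119 CPM, and its axonal levels were 0.941, 1.03, 78.9 and 0.372 CPM, so that 97.1% of its axonal CPM came from a single library. Sema4d, the class 4 semaphorin whose receptors include Plxnb1 and Plxnb2, had 98.4, 94.3, 82.8 and 93.9 CPM in soma and 4.62, 26.7, 10.3 and 6.82 CPM in axons. Sema4d was among the more evenly spread genes in axons, with 55.1% of its axonal CPM in its top library.

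Sema3a, the class 3 semaphorin best known for collapsing sensory growth cones, was close to absent. It stood at 0.299, 0.302, 0.188 and 0.271 CPM in soma, from 12 counts with shControl and 11 with shPum2, and at 0 counts in all 4 axonal libraries. With 3 counts over a hairpin's axonal libraries as the floor for a count of 0, its pooled CPM was at least 2.53-fold lower in axons than in soma with shControl and at least 2.16-fold lower with shPum2. These bounds rest on few somatic counts.

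The semaphorin receptors were led by Nrp1, the neuropilin that binds Sema3a, which was also the most abundant guidance gene of all by length-scaled level at a somatic mean of 136 TPM. Nrp1 had 328, 275, 321 and 279 CPM in soma and 8.98, 1.85, 26.5 and 5.95 CPM in axons. Nrp2, the neuropilin that prefers Sema3f, was at 16.9 TPM, with 29.4, 31.9, 35.8 and 31.6 CPM in soma and 0.257, 9.68, 49.9 and 0.124 CPM in axons. Axonal Nrp2 ranged from near the floor to above every somatic library.

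Among the measured plexins, Plxna3, a signalling partner of neuropilins, was the highest at 40.8 TPM, ahead of Plxnb2 at 24.7 TPM and Plxna2 at 13.7 TPM. Plxna3 had 190, 181, 163 and 170 CPM in soma and 0.685, 2.29, 1.55 and 1.36 CPM in axons. Plxnb2 had 90.1, 60.7, 177 and 62.8 CPM in soma and 37.7, 73.2, 31.6 and 0.186 CPM in axons. Plxna3 was the most evenly spread guidance gene in axons, with 38.9% of its axonal CPM in its top library, whereas Plxnb2 was near 0 in shPum2 replicate 2 only.

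Plxna2 had 92.7, 73.4, 87.1 and 75.7 CPM in soma and 2.57, 0.443, 0.859 and 0 CPM in axons. Plxnb3 stayed between 0.216 and 1.55 CPM in soma and had 0 counts in axons. In the authors' deposited somatic table the unmatched Plxnd1, a receptor for Sema3e, had a mean normalised signal of 4459. In the same table this is near that of Sema4f (4930) and above that of Plxna3 (3786). No length-scaled level was available for Plxnd1.

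Ephrins summed to a mean of 190 TPM in soma over 7 genes, and Eph receptors to 109 TPM over 9. Efnb2, a transmembrane ephrin that can also signal in reverse, was the highest at 67.9 TPM. It had 41, 31.7, 58 and 31.9 CPM in soma and 0.171, 41.5, 3.78 and 0.186 CPM in axons. Axonal shControl replicate 2 alone reached the somatic range.

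Efna1 and Efna5, lipid-anchored ephrins that bind EphA receptors, followed at 37.6 and 29.3 TPM. Efna1 had 37, 28, 27.6 and 26.8 CPM in soma and 0.171, 0.148, 25.1 and 0 CPM in axons. Efna5 had 13.6, 9.23, 10 and 9.99 CPM in soma and 0, 0, 2.32 and 0 CPM in axons. For both, axonal reads came almost wholly from shPum2 replicate 1, at 98.7% and 100% of the axonal CPM.

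Efna2 and Efna4 each appeared in 1 axonal library and no other. Efna2 had 6.52, 6.69, 7.15 and 6.24 CPM in soma and 7.1, 0, 0 and 0 CPM in axons. Efna4 had 5.8, 3.06, 6.45 and 3.06 CPM in soma and 0, 7.09, 0 and 0 CPM in axons. In that library Efna2 stood within its somatic range and Efna4 above it, and the 2 libraries differed.

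The Eph receptor with the highest somatic level was Epha4 at 23.8 TPM, a receptor for ephrins of both classes. Epha4 had 122, 90.4, 71.9 and 68 CPM in soma and 1.71, 0.591, 18.2 and 0.496 CPM in axons. Ephb6, a family member without kinase activity, was at 20.7 TPM, with 44.1, 56.4, 43.9 and 49.1 CPM in soma and 13.7, 0.148, 0.172 and 0.062 CPM in axons. Both somatic shPum2 values of Epha4 were below both shControl values, while the somatic Ephb6 values overlapped.

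Epha5, a receptor for A-type ephrins at 17.4 TPM, had 53.2, 53.9, 49.7 and 49.5 CPM in soma and 2.31, 106, 18 and 0.248 CPM in axons. It was the only member with more than 1 transcript, of 3464 and 8059 bases. In soma the longer transcript held between 27.5 and 32.7 CPM and the shorter one between 21.2 and 23.1 CPM. In axons the 106 CPM of shControl replicate 2 lay on the longer transcript, where the shorter one had 0.148 CPM, whereas 14.4 of the 18 CPM of shPum2 replicate 1 lay on the shorter. The 2 axonal libraries with most Epha5 thus differed in the transcript, which the 4 somatic libraries did not.

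Epha2, another receptor for A-type ephrins, was lower in soma at a mean of 6.78 TPM. Its somatic levels were 14.8, 6.6, 31.5 and 7.98 CPM, and its axonal levels were 0.257, 0.222, 29.4 and 90.4 CPM. Both axonal shPum2 libraries were thus far above both axonal shControl libraries, and both somatic replicates 1 were above both somatic replicates 2.

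The netrin cues Ntn1 and Ntn4 were barely present. Ntn1 had 0.837, 0.69, 1.41 and 0.0775 CPM and Ntn4 had 0.957, 0.431, 1.36 and 0.62 CPM in soma, and both had 0 counts in axons. Their receptors were higher. Unc5b, which mediates repulsion by netrin, had a somatic mean of 34.5 TPM, with 52.8, 54.3, 61 and 53.4 CPM in soma and 0.0856, 5.62, 0.687 and 0 CPM in axons.

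Dcc, the attractive netrin receptor, was at 6.55 TPM, with 19.4, 17.3, 19.6 and 18.4 CPM in soma and 1.63, 0.148, 0.258 and 0.062 CPM in axons. Unc5c was at 4.9 TPM, with 29.5, 24.6, 30 and 23.6 CPM in soma and 0, 0.369, 1.12 and 0 CPM in axons. Unc5d was at 3.91 TPM, with 5.86, 8.33, 6.96 and 6 CPM in soma and 0, 0, 3.52 and 0 CPM in axons. Unc5a stayed between 0.518 and 0.894 CPM in soma but was at 6.44 CPM in axonal shPum2 replicate 1, from 75 counts, and at 0 in the other 3 axonal libraries. The axonal reads of Unc5a and Unc5d came from the same single library.

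Slit1 and Slit2, repellents of Robo-bearing axons, were expressed by the cultures themselves at 26.5 and 13.3 TPM. Slit1 had 81.3, 73, 75.7 and 75.6 CPM in soma and 0.342, 0.369, 2.75 and 0.062 CPM in axons. Slit2 had 37.9, 59.8, 71.5 and 53.9 CPM in soma and 0.428, 0.148, 23.8 and 0 CPM in axons. Slit3 was far lower at 1.95 TPM, with 2.87, 4.79, 11 and 5 CPM in soma and 0, 0, 0.773 and 0 CPM in axons. All 3 Slits were highest among the axonal libraries in shPum2 replicate 1.

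Robo2 was the main Slit receptor at 19.9 TPM, ahead of Robo1 at 9.45 TPM. Robo2 had 106, 104, 112 and 99.5 CPM in soma and 2.4, 0.443, 2.15 and 0.496 CPM in axons. Robo1 had 28.6, 23, 36.8 and 20.1 CPM in soma and 0, 1.63, 0.601 and 0 CPM in axons. Robo4, known from endothelium, was between 0.0863 and 0.8 CPM in soma and at 0 in axons. Endothelial markers were low as well, with sums between 10.6 and 17.2 CPM in soma.

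**Figure D2:**
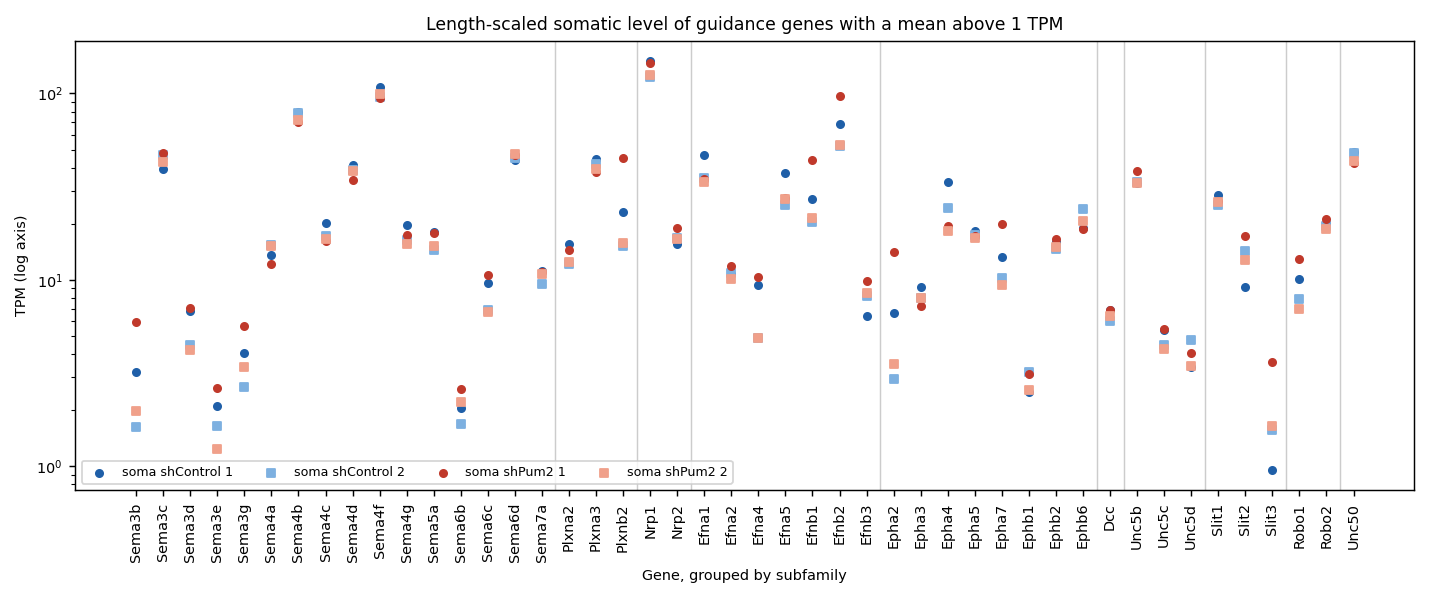
TPM (log axis) in each of the 4 somatic libraries for the members with a somatic mean above 1 TPM, grouped by subfamily. Circles are replicates 1 and squares replicates 2, blue for shControl and red for shPum2. Nrp1 is the highest at a mean of 136 TPM, and in genes such as Epha2 and Plxnb2 the shPum2 replicate 1 circle lies above the other 3 points.

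The first comparison asked whether Pum2 knockdown altered guidance genes in soma. None of the 52 members tested passed the threshold, an adjusted p of 0.05 in edgeR's quasi-likelihood test with Benjamini-Hochberg adjustment over 12346 genes. Of all genes tested, 0.0081% passed. At an unadjusted p of 0.05 the count was 1 of 52 members, against 0.599% of all genes, and with DESeq2 it was again 0 members at the adjusted threshold. The median log2 difference of the members was 0.03, beside 0.01 over all genes, and 29 of the 52 were positive.

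Epha4 had the smallest p of the members. Its mean was 106 ± 22.3 CPM (SD, n = 2) with shControl and 69.9 ± 2.78 CPM with shPum2, a log2 difference of -0.61 (SE 0.15), with an unadjusted p of 0.0109 and an adjusted p of 0.9997 in edgeR. The authors' deposited somatic table gives Epha4 a log2 difference of -0.38, with a p of 0.000756 and an adjusted p of 1. The log2 difference was -0.39 without shControl replicate 1 and -0.80 without shControl replicate 2.

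Other genes whose 2 shPum2 libraries both lay below both shControl libraries had smaller differences. There were 8 such members in all (15.4% of those tested, against 13.0% of all genes). They included Plxna3 with a log2 difference of -0.16 (SE 0.09), Sema4b with -0.15 (SE 0.08) and Sema4c with -0.20 (SE 0.11), none of which passed the test. In the opposite direction 5 members (9.62%) had both shPum2 libraries above both shControl libraries, against 11.5% of all genes.

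The lowest p values among the positive differences belonged to scarce genes. Plxnb3 had 0.299, 0.216, 1.55 and 0.503 CPM and a log2 difference of 1.96 (SE 0.75), with an unadjusted p of 0.0518. Slit3 had a log2 difference of 1.02 (SE 0.48) and an unadjusted p of 0.09. Efnb3, a transmembrane ephrin, had 11.2, 14.5, 17.4 and 15.1 CPM and a log2 difference of 0.32 (SE 0.20), and Sema6b, a transmembrane semaphorin, had 4.54, 3.75, 5.74 and 4.92 CPM and 0.35 (SE 0.25). In all 4 the highest somatic value was that of shPum2 replicate 1, the library rich in fibroblast markers.

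That library was examined gene by gene. Among the 47 members at 1 CPM or more in all 4 somatic libraries, 11 (23.4%) were more than 1.5 times higher in shPum2 replicate 1 than the mean of the other 3 libraries, against 12.4% of the 11083 genes at that level. These were Epha2 (3.22 times), Sema3b (2.62 times), Slit3 (2.6 times), Plxnb2 (2.49 times), Efnb1 (1.89 times), Epha7 (1.82 times), Efnb2, Sema3g, Efna4, Sema3e and Robo1. In 10 of the 11, Slit3 being the exception, shControl replicate 1 also lay above both replicates 2, which is the order of the fibroblast marker sums (3270, 1649, 8515 and 1625 CPM). The same order held in 88.8% of all genes past 1.5 times.

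The 11 were picked by their level in that library, so their knockdown differences with and without it are a description only. For Plxnb2 the log2 difference went from 0.65 (SE 0.50) to -0.23, and for Epha2 from 0.86 (SE 0.72) to -0.38. Among the somatic libraries, macrophage, glial and endothelial marker sums were highest in the same one, at 259, 103 and 17.2 CPM. The part of any of these cells in the values was not tested. For the abundant Nrp1, Robo2, Plxna3 and Sema4f the ratio of that library to the mean of the other 3 was 1.09, 1.08, 0.904 and 0.932.

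**Figure D3:**
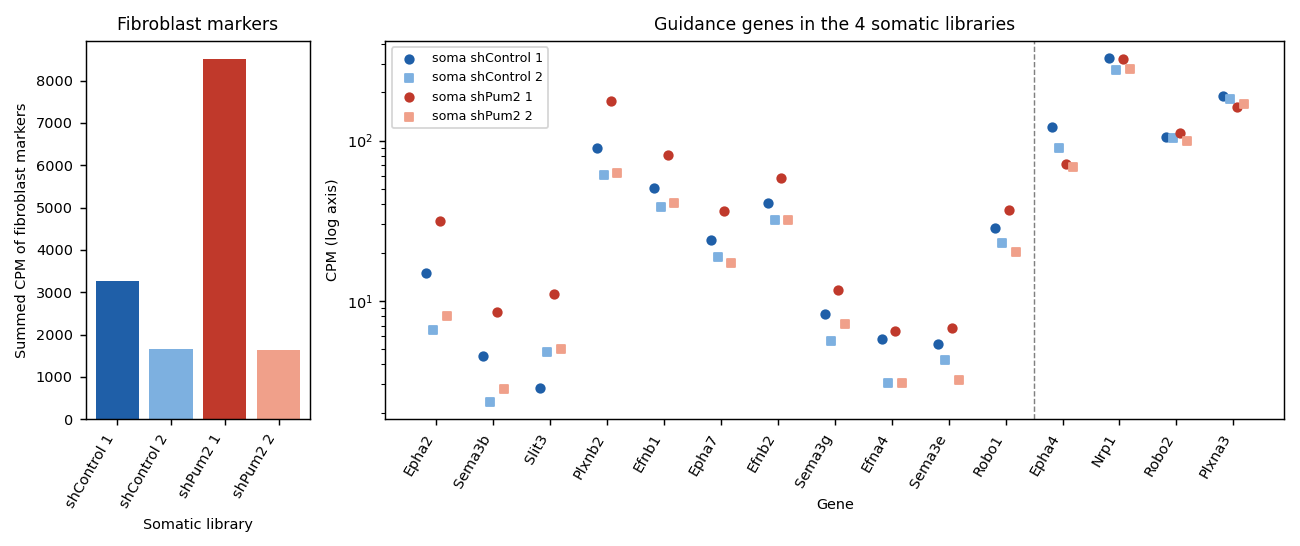
Left, summed CPM of the matched fibroblast markers in the 4 somatic libraries, from 1625 to 8515. Right, CPM (log axis) per somatic library of the 11 members more than 1.5 times higher in shPum2 replicate 1 (left of the dashed line) and of Epha4, Nrp1, Robo2 and Plxna3 (right of it); Epha4 has the widest gap of these 4 between its red points, at 71.9 and 68 CPM, and its blue points, at 122 and 90.4 CPM.

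The axonal comparison asked the same of axons. Of the 54 measured members 21 passed the expression filter, and 0 passed the adjusted threshold in edgeR, and the share of all 8517 genes tested that passed was 0.0%. At an unadjusted p of 0.05 there were 2 members, Epha2 and Unc50, against 3.02% of all genes. The axonal libraries varied far more than the somatic ones, with a common coefficient of variation between replicates of 125% in the axonal fit and 23.5% in the somatic fit. The median log2 difference of the 21 was -0.13, beside -0.05 over all genes, and 10 were positive.

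Epha2 had the smallest p of the 21. Its 2 shPum2 libraries (29.4 and 90.4 CPM) and 2 shControl libraries (0.257 and 0.222 CPM) gave a log2 difference of 7.95 (SE 1.94), with an unadjusted p of 0.00311 and an adjusted p of 0.9998 in edgeR. Without any one of the 4 libraries the log2 difference lay between 6.48 and 8.67. DESeq2 put it past the threshold (adjusted p = 0.000162), and the authors' deposited axonal table does so too, with a log2 difference of 7.24 and an adjusted p of 0.000341.

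Unc50 was at 0, 0.148, 21 and 8.12 CPM in axons and at 30, 30.1, 26.1 and 27.3 CPM in soma. Its axonal log2 difference was 7.24 (SE 3.12), with an unadjusted p of 0.0474 and an adjusted p of 0.9998 in edgeR. DESeq2 gave an adjusted p of 0.0283 and the authors' deposited axonal table gives 6.04 with an adjusted p of 0.0194. Among the members listed there with an adjusted p, 2 of 26 passed in the authors' deposited axonal table, the same Epha2 and Unc50, against 4.03% of all genes.

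Values with 1 library left out were taken for 8 of the 21 tested members, the 4 with the smallest p in each direction. For 4 of these 8 a large axonal difference changed direction. The other tested members were not examined in this way. Sema3c had a log2 difference of 4.95 (SE 2.58), which was -1.23 without shPum2 replicate 1, and Epha4 had 2.65 (SE 2.60), which was -1.04 without that library. Efnb2 had -3.71 (SE 2.82), which was 3.06 without shControl replicate 2, and Epha5 had -2.91 (SE 2.21), which was 1.55 without it. Plxnb2, with both shPum2 libraries below both shControl libraries, had -2.16 (SE 1.89), and ranged from -7.99 without shPum2 replicate 1 to -1.21 without shPum2 replicate 2. Sema4c, whose axonal groups did not overlap either, had -2.10 (SE 1.89) and ranged from -3.45 to -1.39, the first without shPum2 replicate 1 and the second without shControl replicate 2. None of these 6 passed the test.

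This concentration was measured over all genes. Of the 40 members with at least 10 axonal counts, 13 (32.5%) had over 90% of their axonal CPM in 1 library, against 17.4% of 10831 genes. In soma the count was 0 of 53 members, against 0.0299% of 13378 genes, so hardly any gene showed it there. The 13 fell to shControl replicate 1 (3 genes), shControl replicate 2 (4 genes) and shPum2 replicate 1 (6 genes), with 0 in shPum2 replicate 2. The median share of the top library was 79.0% for the members and 56.3% for all genes. Members were low in axons as a group, and the share of 1 library was not compared at matched level.

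Axonal shPum2 replicate 1, which held the most guidance RNA, also had the highest axonal marker sums for neurons, fibroblasts and macrophages. These were 34466 CPM (the others between 18822 and 25483), 724 CPM (69 to 361) and 3694 CPM (222 to 2738). Nefm alone held 23707 CPM of the neuronal sum. Gap43, Prph, Stmn2 and Uchl1 were highest in shPum2 replicate 2, Isl1 and Snap25 in shControl replicate 2, and the other neuronal markers in shPum2 replicate 1. Postn peaked in shControl replicate 1 (97.9 CPM) and Pdgfra in shControl replicate 2 (20.1 CPM), unlike the other fibroblast markers. The glial sum was highest in shControl replicate 1, at 195 CPM against 148 CPM in shPum2 replicate 1. Axonal shPum2 replicate 2, with the fewest members at 1 CPM, had the lowest sums for fibroblasts and macrophages. Of the 10 macrophage markers between 7 and 9 were detected in an axonal library. Lyz2 was at 816, 2190, 2061 and 172 CPM and Cd68 at 400, 373, 554 and 13.6 CPM in axons, against 5.89 to 23.9 and 9.76 to 45.9 CPM in soma. Other macrophage markers were less even. C1qa, C1qc and Csf1r were above every somatic library in both axonal replicates 1. They were below every somatic library in axonal shControl replicate 2 (0.369, 0.222 and 0.296 CPM) and shPum2 replicate 2 (7.93, 0.062 and 0.31 CPM). Cd74 was at 0 in all 4 axonal libraries and at no more than 0.777 CPM in soma, and 4 or more of the 6 endothelial markers were at 0 in 3 of them. The part of these cells in the axonal guidance values was not tested.

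**Figure D4:**
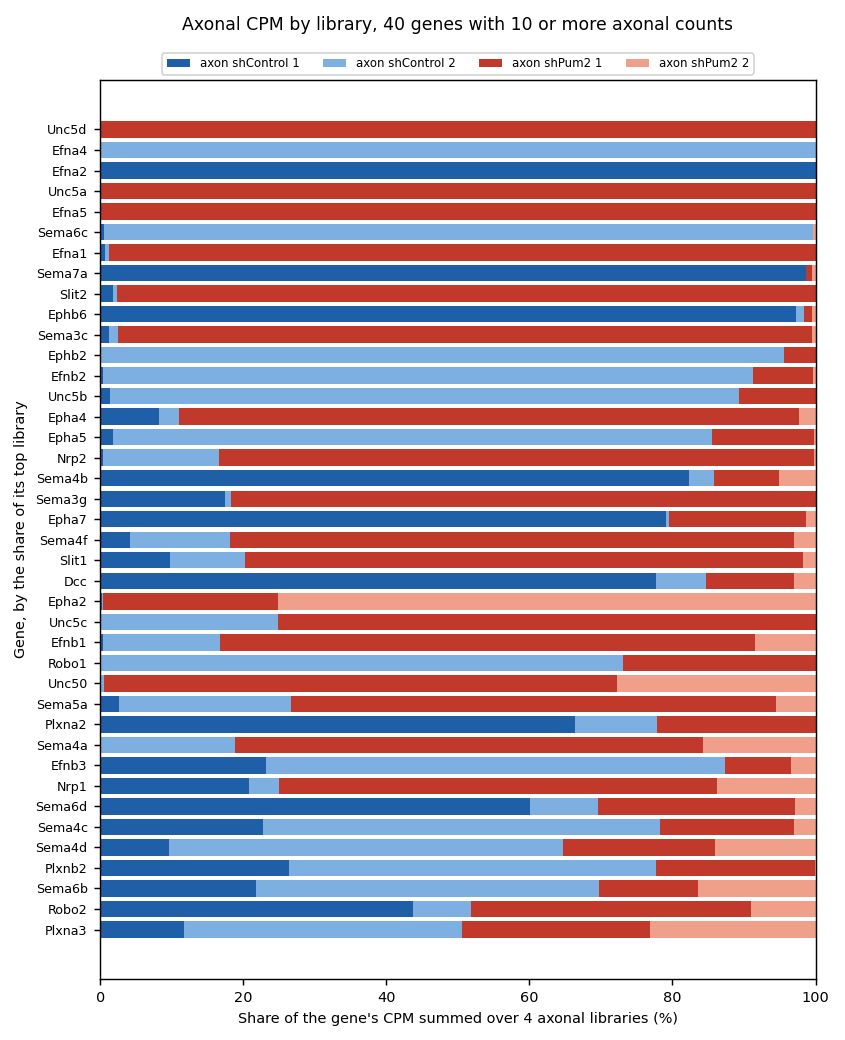
Share of each gene's summed axonal CPM that came from each of the 4 axonal libraries, for the 40 members with at least 10 axonal counts, ordered by the share of the top library. Bars of a single colour, such as Efna2, Efna4 and Unc5d, had 100% in 1 library, while Plxna3 at the bottom had 38.9% in its top library.

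The difference between the 2 knockdown effects was tested as an interaction in a fit of all 8 libraries, in which somatic and axonal libraries shared each gene's estimate of spread. Of 51 members tested 0 passed, and of 12337 genes 0.0% passed. At the unadjusted level 3 members (Epha2, Unc50 and Sema6c) had a p below 0.05, against 7.81% of all genes. The axonal effect on Epha2 exceeded the somatic one by a log2 of 7.22 (SE 1.67, adjusted p = 0.341 in edgeR) and that on Unc50 by 7.54 (SE 1.82, adjusted p = 0.343). DESeq2 put both past the threshold, with adjusted p of 0.0007 and 3.33e-07, and without axonal shControl replicate 1 Unc50 alone passed in edgeR (adjusted p = 0.0395). Sema6c, with 0.0856, 16.6, 0 and 0.062 CPM in axons, had -7.76 (SE 3.14, adjusted p = 0.572), which was -1.29 without axonal shControl replicate 2. The Unc50 interaction ranged from 6.60 to 12.28 with a library left out.

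The compartments were then compared within each hairpin, in 2 contrasts of the same fit of all 8 libraries that share no library. With shControl, 14 of 51 members (27.5%) were lower in axons and 0 were higher at the adjusted threshold, against 18.5% of all genes lower and 9.41% higher. With shPum2, 13 (25.5%) were lower and 0 higher, against 16.2% and 8.45%. The median log2 difference of the members was -4.18 with shControl and -4.92 with shPum2, beside -0.75 and -0.64 over all genes. With genes at 0 set to their bound the medians were -3.20 and -3.25, beside -0.69 and -0.62.

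These counts depended on single libraries. Leaving out any 1 of the 4 somatic libraries left 0 members past the threshold in either contrast. Of all genes 0 then passed where the library was of the contrast's own hairpin, while 514 and 498 passed in the shControl contrast without a somatic shPum2 library and 375 and 386 in the shPum2 contrast without a somatic shControl library. Leaving out either axonal library of the other hairpin raised the members to 27, all lower, as the count of all genes rose to 5539 and 5532 in the shControl and to 4692 and 4751 in the shPum2 contrast. In the shPum2 contrast 25 members were lower and Epha2 was higher without axonal shPum2 replicate 1, and 7 were lower and Unc5a (log2 difference 4.26, adjusted p = 0.0311) was higher without replicate 2. TMM, the scaling used, assumes that most genes do not differ. Scaled by total counts instead, the median of all genes moved to -2.35 and -2.03, the share of calls that were higher fell from 33.7% to 14.4% and from 34.2% to 15.1%, and the members called became 20 and 21, all lower.

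By position alone, without a test, every axonal library lay below every somatic library of its hairpin in 44 of 51 members with shControl (86.3%, against 68.7% of all genes) and in 47 with shPum2 (92.2%, against 69.3%). These are CPM over library totals. In both hairpins the majority of guidance genes was therefore lower in axons by CPM, as was the majority of all genes.

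Plxna3 had the smallest adjusted p of the members in both contrasts. Its means were 186 ± 6.71 CPM in soma and 1.49 ± 1.14 CPM in axons with shControl (SD, n = 2), and 167 ± 4.94 and 1.45 ± 0.129 CPM with shPum2. The log2 differences were -5.39 (SE 0.84, adjusted p = 0.0109) and -5.30 (SE 0.83, adjusted p = 0.0127). Robo2 was similar, at -4.60 (SE 1.13, adjusted p = 0.0282) and -4.97 (SE 1.15, adjusted p = 0.0251). Both genes had reads in all 4 axonal libraries, so their axonal level was measured and not only bounded.

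The Eph receptors Epha1, Epha3 and Ephb1 also fell in both contrasts, from few or no axonal counts. Epha1 had 0 axonal counts in either hairpin, and its pooled CPM was at least 11.2-fold lower with shControl and at least 14.4-fold lower with shPum2 than in soma, with 3 counts over the group as the floor. Epha3 had 15.9, 14.1, 12.6 and 14.1 CPM in soma and 1 axonal count in all, which gave a ratio of 374 with shControl (95% exact counting interval 66.9 to 14804) and at least 124-fold with shPum2. Ephb1, at 6.64, 8.63, 8.37 and 6.89 CPM in soma, had 1 axonal count per hairpin and ratios of 197 (35.0 to 7789) and 210 (37.5 to 8319).

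Class 3 semaphorins Sema3b, Sema3d and Sema3e fell in both contrasts too. Sema3b had 4.54, 2.33, 8.47 and 2.83 CPM in soma and 0 axonal counts, at least 27.4-fold lower with shControl and at least 49.8-fold lower with shPum2. Sema3d had 19.3, 12.8, 20.2 and 12 CPM in soma and was at least 131-fold lower with shControl. With shPum2 it had 2 axonal counts and a ratio of 218 (60.1 to 1803). Sema3e, at 5.38, 4.27, 6.78 and 3.21 CPM in soma, had 1 axonal count per hairpin and ratios of 119 (21.2 to 4743) and 134 (23.8 to 5313). Sema3b and Sema3e were also among the 11 members picked above by their level in somatic shPum2 replicate 1.

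The ninth gene that fell in both was Ntn4, at least 5.48-fold lower with shControl and at least 8.85-fold lower with shPum2. All these bounds and ratios are of CPM over library totals, whereas the calls used TMM scaling. TMM factors were 1.66 to 1.8 in soma and 0.478 to 0.754 in axons, so the folds are smaller on the scale of the test. For Epha3 with shControl the fitted fold was 112, beside the ratio of 374. The 9 shared genes were 64.3% of the members called with shControl and 69.2% of those called with shPum2. The overlap over all genes was not counted, so these shares cannot be read as particular to the members. Both contrasts also share each gene's estimate of spread, which favours the same genes in both.

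Called with shControl alone were Nrp1, Sema4a, Sema4g, Slit1 and Unc50. Nrp1 fell by 4.19 on the log2 scale (SE 0.96, adjusted p = 0.0234) with shControl and had -2.86 (SE 0.90, adjusted p = 0.0617) with shPum2. Slit1 had -6.16 (SE 1.59, adjusted p = 0.032) and -4.53 (SE 1.45, adjusted p = 0.066). Sema4a, with 24.4, 28, 22.1 and 27.8 CPM in soma and 0, 0.148, 0.515 and 0.124 CPM in axons, had -6.81 (SE 1.63, adjusted p = 0.0261) and -4.92 (SE 1.45, adjusted p = 0.0512). Sema4g, with 48.5, 40.9, 43.4 and 39.1 CPM in soma and 0, 0.222, 0.344 and 0 CPM in axons, had -7.02 (SE 2.0, adjusted p = 0.0421) and -6.65 (SE 1.95, adjusted p = 0.0503). The 4 guidance genes moved the same way with either hairpin, and the interaction was past the threshold for none of the 5 in edgeR.

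Called with shPum2 alone were Dcc, Efnb3, Sema4b and Sema4c. Sema4b had -6.39 (SE 1.53, adjusted p = 0.0275) with shPum2 and -3.79 (SE 1.34, adjusted p = 0.078) with shControl. Sema4c, with 48.4, 41.9, 38.7 and 40.1 CPM in soma and 0.941, 2.29, 0.773 and 0.124 CPM in axons, had -5.13 (SE 1.21, adjusted p = 0.026) and -3.23 (SE 1.10, adjusted p = 0.0697). Dcc had -5.50 (SE 1.56, adjusted p = 0.0452) and -2.76 (SE 1.35, adjusted p = 0.171). Efnb3, at 0.428, 1.18, 0.172 and 0.062 CPM in axons, had -5.66 (SE 1.22, adjusted p = 0.0215) and -2.43 (SE 1.03, adjusted p = 0.124). For these 4 as well no interaction passed, so no difference between the hairpins was shown.

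**Figure D5:**
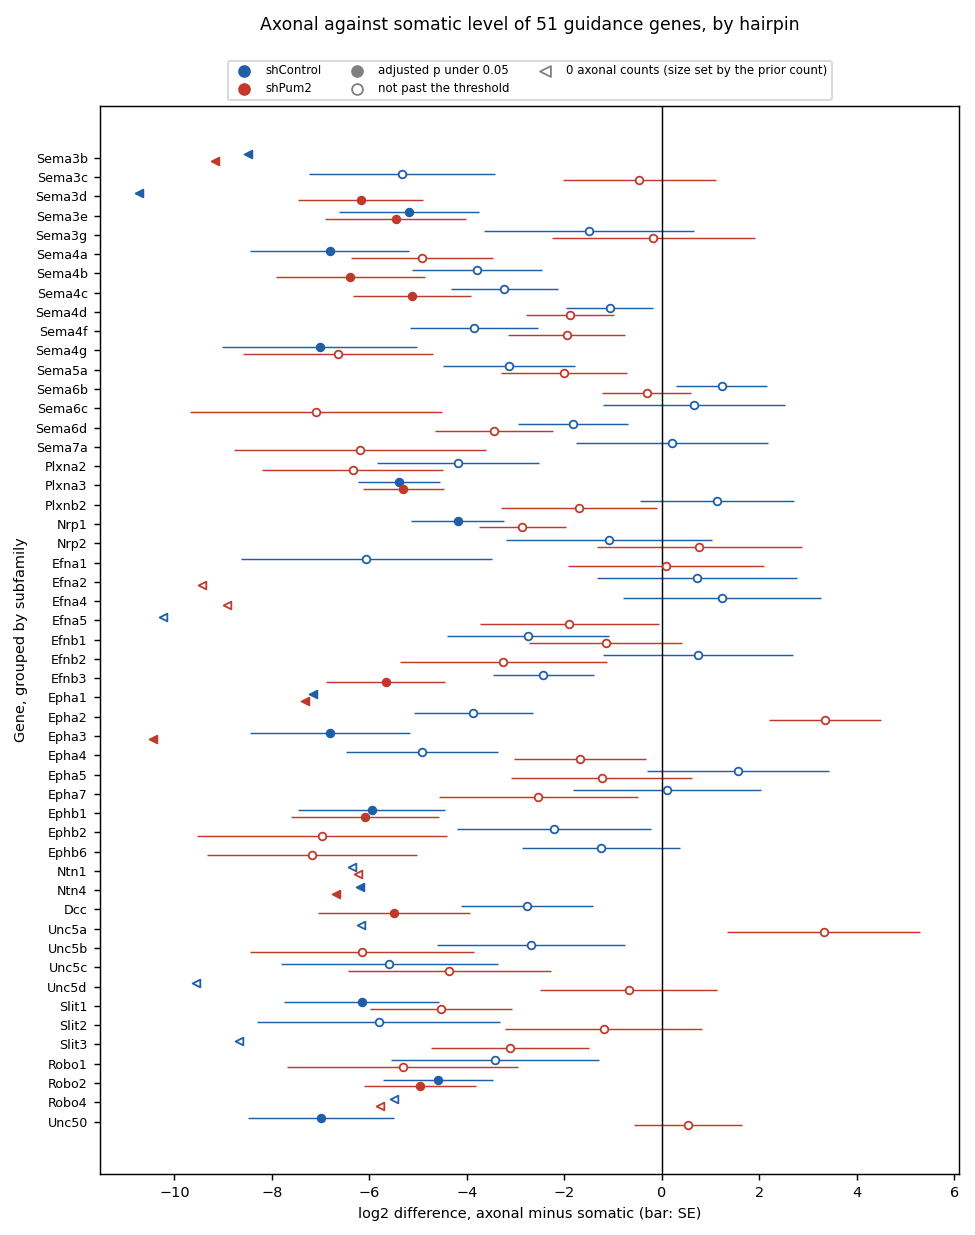
Log2 difference of axonal minus somatic level for 51 members with shControl (blue) and shPum2 (red), from edgeR with TMM scaling. Circles carry bars of 1 SE, filled symbols passed the adjusted threshold of 0.05, and triangles mark genes with 0 axonal counts, whose plotted size is set by the prior count. All filled symbols lie left of 0, at log2 differences of -4.19 or below.

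By the fitted difference, 9 of 51 members (17.6%) were higher in axons with shControl, against 41.5% of all genes. With shPum2 it was 5 members (9.8%), against 40.2%. With shControl they included Efna4 (1.24), Efnb2 (0.75), Efna2 (0.72), Sema6c (0.66), Sema7a (0.21) and Epha7 (0.11). With shPum2 they included Unc5a (3.32), Nrp2 (0.77), Unc50 (0.54) and Efna1 (0.08). Of these, Efna1, Efna2, Efna4, Efnb2, Sema6c, Sema7a and Unc5a had over 90% of their axonal CPM in 1 library. Sema6b had 2.05, 4.51, 1.29 and 1.55 CPM in axons, and its log2 difference was 1.23 (SE 0.93) with shControl and -0.31 (SE 0.92) with shPum2. Epha2 with shPum2 had 3.35 (SE 1.14, adjusted p = 0.0787). Without axonal shPum2 replicate 1 it passed in edgeR at 4.25 (adjusted p = 0.0293), without replicate 2 it was 1.74 (adjusted p = 0.268), and DESeq2 with all libraries called it higher in axons. Plxnb2 with shControl had 1.13 (SE 1.58). Epha5 with shControl had 1.56 (SE 1.87), which was -2.93 without shControl replicate 2. None passed the edgeR test with all libraries, and with total counts the shControl values of Sema6b and Plxnb2 were -0.34 and -0.44.

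Detection was counted without a fit. Of the 47 members at 1 CPM or more in all 4 somatic libraries, 9 reached 1 CPM in no axonal library, 19 in 1, 9 in 2, 5 in 3 and 5 in all 4. The 5 present in all 4 were Sema4d, Sema4f, Sema6b, Sema6d and Nrp1, so 4 of them were semaphorins. The share in all 4 was 10.6%, against 38.3% of 11083 genes. At a level of 1 TPM instead, the number of members in all 4 axonal libraries was 0.

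Transcripts of guidance genes are long, with a median of 3847 bases for the 51 tested members against 2195 bases for all 12337 genes tested. Over all genes, longer transcripts were lower in axons (Spearman correlation of length with the log2 difference -0.32 with shControl and -0.35 with shPum2). Over the 51 members the same correlation was 0.03 and 0.16. These correlations are across genes of the same libraries and are descriptions only.

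Other genes of the guidance pathways were read from 2 lists, of 16 matched further cues and co-receptors and 48 matched intracellular effectors. Neither list had a gene past the threshold in the somatic, axonal or interaction comparison. In axons against soma, 7 of the 16 cues and co-receptors (43.8%) were lower and 0 higher with each hairpin. Only Ntng2, Rgma, Dscam and L1cam were called in both contrasts. Of all genes, 18.5% were lower and 9.41% higher with shControl, and 16.2% and 8.45% with shPum2. L1cam, an adhesion co-receptor of Nrp1, was at 906, 965, 880 and 990 CPM in soma and at 4.36, 4.73, 65.5 and 45.7 CPM in axons. It fell by 6.10 (SE 0.39, adjusted p = 0.00389) with shControl and by 2.57 (SE 0.33, adjusted p = 0.00758) with shPum2 on the log2 scale. The interaction of L1cam was not past the adjusted threshold in edgeR.

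Among the effectors more were called lower than higher in axons, as among all genes. With shControl 11 of 48 were lower (22.9%, against 18.5% of all genes) and 3 higher (6.25%, against 9.41%). With shPum2 10 were lower (20.8%, against 16.2%) and 2 higher (4.17%, against 8.45%). The lower ones included Dpysl2 (CRMP2), a mediator of semaphorin signalling, which fell from 1915 ± 77.8 to 84.1 ± 28.8 CPM with shControl (SD, n = 2; log2 difference -2.93, SE 0.35, adjusted p = 0.00598), and the Slit-Robo GTPase-activating proteins Srgap1 and Srgap3. Cdc42, a small GTPase that drives filopodia, was called higher in both contrasts, with 275, 276, 278 and 283 CPM in soma and 387, 421, 509 and 554 CPM in axons. Cfl1, the actin-severing cofilin, was called higher in both contrasts under TMM (log2 differences of 1.56 and 1.91), but its CPM with shControl were 1114 ± 7.3 in soma and 1098 ± 73.2 in axons.

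By detection, 20 of the 47 effectors at 1 CPM or more in all somatic libraries reached 1 CPM in all 4 axonal libraries (42.6%), close to the 38.3% of all genes. Among the further cues and co-receptors it was 2 of 15 (13.3%). The guidance ligands and receptors, at 5 of 47, were nearer to the latter. No test was made between the lists.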

How the data were processed

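RNA of 8 libraries was measured by RNA-seq. The authors' deposited library files hold kallisto estimated counts, TPM and lengths of 18321 RefSeq transcripts, per the file headers and, for the tool, per the submitters' processing notes. Those notes name the build Rnor_6.0, and tool versions are not given in the sources used here. The authors' 2 deposited comparison tables, made with DESeq2 per the same notes, list per the file headers p-values, a test statistic (score), the log2 fold change with its standard error, and the normalised signal averaged over libraries.

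Transcripts were matched by accession to a RefSeq table of GRCr8, used for names only: 17367 (94.8%) matched, and the other 954 held 2.02% to 3.62% of a library's counts. Summing them by symbol gave 17379 genes, whose estimated counts were rounded. kallisto divides reads between similar genes by estimate, so values within families of close sequence carry that uncertainty. No promoter or protein sequence was used.

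Tests used edgeR 4.0.16 in R 4.3.3 (quasi-likelihood, TMM, its expression filter, Benjamini-Hochberg over all genes tested), with 1 fit per compartment for the knockdown and 1 of all 8 libraries for the interaction and compartments. On simulated counts the tests recovered nearly all large changes where libraries varied little. They recovered none where axonal libraries varied about as much as in the axonal fit. Every simulated gene was given the same axonal spread, whereas spread differs between genes in the deposited libraries. The simulation is therefore only a rough guide to them. With a common variation of 125% in the axonal fit, a count of 0 in axons says little. DESeq2 1.42.0, voom of limma 3.58.1, other size factors, no filter, a 2-fold limit, a replicate block, other sets of libraries and each library left out were the alternatives. Binomial intervals used scipy 1.17.1. Intervals and floors cover counting error only. Fold bounds and count ratios of single genes use library totals without TMM scaling.

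The members and gene lists were chosen with earlier results of these data known. Values in every library were given for up to 3 genes per subfamily with the highest somatic TPM, those past a threshold, those with the smallest p (up to 4 per direction) and the 8 with the highest axonal CPM. Other genes were given by range or count.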

Additional observations from a re-analysis of the deposited data

How the results depend on the processing

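With 2 libraries a group, single libraries weighed heavily. For the somatic knockdown, 0 members passed under every alternative, and the count of all genes (1) was 2 with DESeq2, 0 with a 2-fold limit, with voom and with all 8 libraries in a fit, and 0 to 1 with a library left out. For the axonal knockdown, DESeq2 called 2 members and 334 genes, no expression filter gave 6 genes, and leaving out a library gave 0 to 31. For the interaction, DESeq2 called 2 members and 631 genes, and leaving out a library gave 0 to 1 members and 0 to 713 genes. For axons against soma with shControl, DESeq2 called 26 members, the replicate block 9 and leaving out a library 0 to 27 (all genes 0 to 5539). With shPum2 DESeq2 called 27, total counts 21, the replicate block 9 and leaving out a library 0 to 27 (all genes 0 to 4862). At 1 TPM in place of 1 CPM, 0 members were in all axonal libraries.

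Among the members examined under the alternatives, direction turned for some, none of which was past the threshold with all libraries. With total counts the shControl contrast gave Sema6b -0.34, Plxnb2 -0.44 and Efna4 -0.32, and the shPum2 contrast Unc50 -0.87 and Nrp2 -0.43. With voom Epha5 was -0.03 and Efna4 -1.72 (shControl), and Nrp2 was -2.13 (shPum2). With a library left out, the somatic knockdown ranged from -0.23 to 1.19 for Plxnb2 and from -0.13 to 0.10 for Nrp1, and the axonal knockdown from -1.23 to 5.90 for Sema3c, -1.04 to 3.61 for Epha4, -7.54 to 1.55 for Epha5 and -6.57 to 3.06 for Efnb2. The interaction of Unc5a ranged from -0.12 to 10.55. Against soma, Epha5 ranged from -2.93 to 2.61 and Efna4 from -8.99 to 2.30 with shControl, and Unc5a from -6.39 to 4.26 and Nrp2 from -6.03 to 1.71 with shPum2. The cause of these changes was not tested.

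Same-numbered libraries deviated together across genes (r = 0.671 in soma, 0.126 in axons), but with 2 pairs a compartment this does not establish a pairing. With the replicate number as a block 0 members passed in the somatic, axonal and interaction comparisons. In the compartment contrasts Sema4a, Sema4g, Slit1, Epha3 and Ephb1 were then not called with shControl, Sema3d, Sema4c, Dcc, Epha3 and Ephb1 not with shPum2, and Nrp1 was called with shPum2 as well (-3.10, adjusted p = 0.0486).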
